A study of Mus musculus with 15 samples.

Results

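The genes that load, clear and recycle glutamate were followed across the cells of the mouse prefrontal cortex (PFC), as 7 of the 26145 listed genes. They were taken by symbol: the vesicular glutamate transporters Slc17a7, Slc17a6 and Slc17a8, the plasma membrane transporters Slc1a1, Slc1a2 and Slc1a3, and the glutamine synthetase gene Glul. Each symbol matched 1 row of the gene lists. Vesicular transporters fill synaptic vesicles with glutamate, so they mark the neurons able to release it. Glutamate that has left the synapse is taken up by the plasma membrane transporters, chiefly those of astrocytes, and is turned into glutamine by glutamine synthetase. Glutamine then returns to neurons, which is the glutamate-glutamine cycle known from cortex.

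The data were single cell RNA counts (10x Genomics) from male C57BL/6N mice. Adult (P60) mice of 8 to 10 weeks self-administered cocaine or saline through a vein and were sampled at the maintenance phase, after 48 h of withdrawal or after 15 d of withdrawal, with 2 libraries per treatment and period (12 libraries, each pooled from 2 mice). The young (P21) mice of 3 weeks received neither and gave 3 libraries from 4 mice. The methods give 2 mice pooled per replicate, which does not say how 4 mice made 3 libraries, so these may share mice. All P60 mice, saline controls included, had undergone the self-administration procedure. In the paper catheters were implanted at P60 and withdrawal followed self-administration, so mice of later periods were older when sampled. The tissue tag of the labels reads NAc, whereas titles and source names read PFC. The excitatory cells held the cortical marker Tbr1 (49.8 ± 6.12 CPM, SD, n = 12 P60 libraries).

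A level below is the sum of a gene's molecules (UMIs) over the cells of a class or cluster in 1 library, scaled to the total UMIs of those cells (counts per 1e6, CPM), given as mean ± SD over libraries. Only 1 end of each transcript is counted and levels are not divided by length, so levels of different genes are not ranked against each other. Cell classes and clusters are the authors' own. Per the paper's methods, P21 cells were assigned to clusters by their correlation with the P60 cells, and some lacked a high similarity. The part of this assignment in differences of cluster mix or cluster level between ages was not tested. The cells that entered numbered 24789 at P60 and 10079 at P21. They fell in 8 classes: excitatory and inhibitory neurons, astrocytes (Astro), oligodendrocytes (Oligo), newly formed oligodendrocytes (NF Oligo), oligodendrocyte precursors (OPC), microglia and endothelial cells (Endo). Libraries held from 8375172 to 42892922 UMIs. Any pair of libraries shared at most 27 cell barcodes, and at most 1.09% of the smaller library. The summed level of a class's own marker list exceeded that of every other list in saline P60 libraries of 6 of the 8 classes. In NF Oligo the oligodendrocyte list (37282 CPM) exceeded the newly formed list (6156 CPM), and in OPC the astrocyte list (1595 CPM) was level with the precursor list (1584 CPM). The 4 libraries of 15 d withdrawal, 2 cocaine and 2 saline, stood apart. In astrocytes the summed excitatory markers were 377 to 916 CPM in them and 45.0 to 171 CPM in the other 7 libraries with enough astrocytes. The mean of the same sum was also higher in them in inhibitory neurons, Oligo, NF Oligo, Endo, microglia and OPC.

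Promoter sequences are shown for the 3 members on which most results turn, as the letters upstream of 1 annotated start of each. They were read from RefSeq (build GRCm38.p6, not the build of the counts), which held all 7 members. Each line gives the 250 bases before that start, 5′ to 3′ on the gene's strand. Where a gene had several annotated starts, only the one listed first was used. Capitals mark matches, on either strand, to the TATA box TATAAA, the CCAAT box, the GC box GGGCGG, the E box CAGCTG, the CRE core TGACG or the NFI core TTGGC.
Slc17a7 (chr7:45163671-45163920, plus strand): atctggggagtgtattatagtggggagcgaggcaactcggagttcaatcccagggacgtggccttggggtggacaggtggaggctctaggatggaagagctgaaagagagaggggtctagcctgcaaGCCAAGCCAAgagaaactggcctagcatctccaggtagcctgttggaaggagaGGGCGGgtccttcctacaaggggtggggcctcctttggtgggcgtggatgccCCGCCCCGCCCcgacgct
Slc1a2 (chr2:102706188-102706437, plus strand): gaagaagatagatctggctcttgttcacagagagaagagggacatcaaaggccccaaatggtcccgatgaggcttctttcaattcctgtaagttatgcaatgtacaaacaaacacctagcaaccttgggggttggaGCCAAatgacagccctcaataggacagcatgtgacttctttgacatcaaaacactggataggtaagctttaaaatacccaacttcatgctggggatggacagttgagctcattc
Glul (chr1:153899679-153899928, plus strand): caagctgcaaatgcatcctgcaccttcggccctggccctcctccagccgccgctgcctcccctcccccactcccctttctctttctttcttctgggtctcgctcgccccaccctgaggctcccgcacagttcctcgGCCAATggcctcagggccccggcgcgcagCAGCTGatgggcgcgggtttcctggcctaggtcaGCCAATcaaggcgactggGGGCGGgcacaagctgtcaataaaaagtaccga
The Slc17a7 window held 3 GC box matches and 2 NFI core matches. The Slc1a2 window held 1 NFI core match and none of the other motifs, and its GC content was 44.8% with 1 CpG, against 61.2% with 9 CpG for Slc17a7 and 64.8% with 15 CpG for Glul. The Glul window held 2 CCAAT matches, each overlapping an NFI core match, with 1 GC box and 1 E box. Over 27018 RefSeq promoter windows of the same length, TATAAA was present in 12.97%, CCAAT in 34.5%, GGGCGG in 32.9%, CAGCTG in 12.8%, TGACG in 17.9% and TTGGC in 41.9%. The median window had a GC content of 52.0% and 6 CpG. These matches describe the letters only. Whether a window is the main promoter of its gene, that of Slc1a2 included, was not tested.

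The 3 vesicular transporters divided the neurons unevenly. Slc17a7 (VGLUT1, ENSMUSG00000070570, NCBIM37 chr7:52419291-52431508, plus strand), the usual vesicular transporter of cortical pyramidal cells, was detected in 95.2% (95% exact interval 94.9 to 95.6%) of P60 excitatory cells, at a median depth of 13622 UMIs. It was detected in 17.3% (15.2 to 19.6%) of inhibitory cells, at a median of 8058 UMIs, and after every cell was cut down to 2000 UMIs the percentages became 49.9% and 4.28%. These intervals cover counting error only. Its level in excitatory cells was 302 to 475 CPM across the 12 P60 libraries, above every other class in all libraries. The other 7 classes had means from 26.7 CPM in inhibitory cells to 70.8 CPM in OPC, and no neighbours among them differed by more than the larger SD. In 5 of these 7 classes the 4 libraries of 15 d withdrawal were all above the other P60 libraries, as in inhibitory cells, where they read 55.9 to 67.8 CPM against 0 to 15.9 CPM. Among all genes with a mean of at least 10 CPM, 1.4% did so in inhibitory cells, 10.8% in astrocytes, 3.91% in Oligo, 4.99% in Endo and 4.68% in OPC, the 5 classes in question. In those libraries the summed excitatory markers in inhibitory cells were 329 to 505 CPM, against 124 to 193 CPM elsewhere. The part of that neuronal RNA in the low Slc17a7 levels was not tested. Within excitatory cells the 26 clusters ran from 236 ± 43.8 CPM in Exc_21 to 583 ± 122 CPM in Exc_25 at P60.

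Slc17a6 (VGLUT2, ENSMUSG00000030500, chr7:58877200-58926495, plus strand), best known from subcortical projection neurons, was low in the excitatory class as a whole (8.63 ± 1.98 CPM, n = 12) and concentrated in few clusters. Exc_21, whose leading genes were Tshz2, Nxph1 and Trh, held it at 114 ± 19.3 CPM, and Exc_10, led by Cartpt and Pld5, at 33.2 CPM. The median of the 26 clusters was 2.00 CPM. Exc_21 made up 5.38% of P60 excitatory cells and 39.3% of their Slc17a6 UMIs, and at P21 it made up 6.26% of cells and 41.6% of UMIs. Most cells with Slc17a6 also had Slc17a7. Of 1224 P60 excitatory cells with a Slc17a6 UMI, 91.2% also had one of Slc17a7, near the 95.2% of all excitatory cells. In inhibitory cells Slc17a6 was found in 9 of 1168 cells at P60.

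Slc17a8 (VGLUT3, ENSMUSG00000019935, chr10:89036765-89083998, minus strand), the vesicular transporter known from neurons that release glutamate beside another transmitter, came from 1 cluster in each neuron class. Exc_21 held 87.1% of the excitatory Slc17a8 UMIs at P60 and 78.4% at P21, at 47.4 ± 16.04 CPM (n = 12) and 75.7 ± 12.1 CPM (n = 3). The next P60 cluster, Exc_15, held 0.737 CPM. Inhib_12 was 29 of 1168 inhibitory cells at P60 and 44 of 939 at P21, and it held 89.9% and 92.2% of the inhibitory Slc17a8 UMIs. With all cells of an age summed its level was 187 CPM at P60 (71 UMIs) and 230 CPM at P21 (94 UMIs). A Slc17a8 UMI was found in 15 of 29 Inhib_12 cells at P60 (51.7%, median depth 15339 UMIs). At P21 it was found in 12 of 44 (27.3%, median depth 10694 UMIs). Every Inhib_12 cell contained Cck, the gene of a neuropeptide, and 29 of 29 P60 cells contained Gad1 and Gad2, which make GABA. Slc17a8 itself was among the leading genes of Inhib_12, so its height there is a description. Slc17a6 had no UMI in Inhib_12, with 0 of 29 cells at P60 (exact upper bound 11.9%) and 0 of 44 at P21 (8.04%); this bound is on cells with a UMI, not on cells that express the gene.

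**Figure D1:**
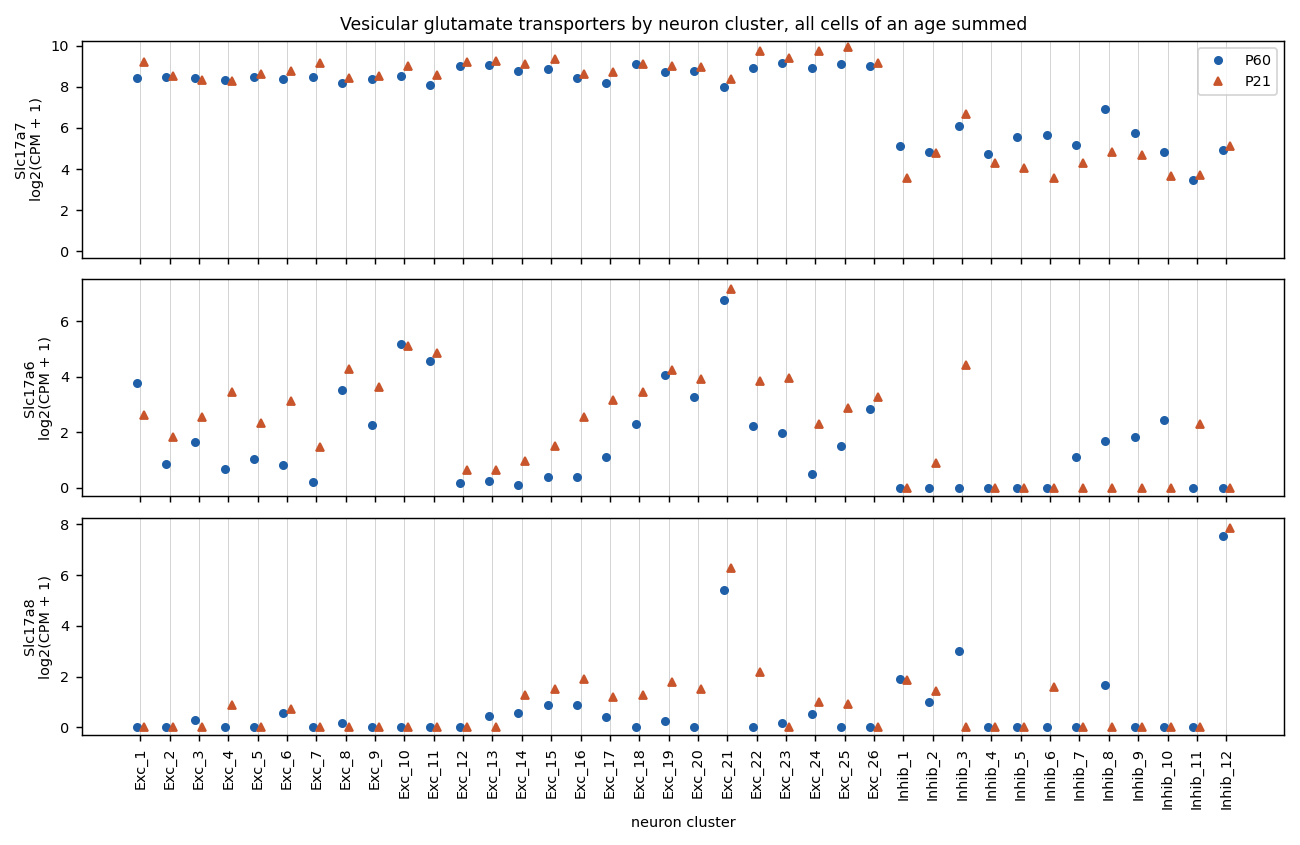
Level of Slc17a7, Slc17a6 and Slc17a8 in each of 38 neuron clusters, as log2(CPM + 1) with all cells of an age summed; circles are P60 (12 libraries) and triangles P21 (3 libraries), with no error bars since cells are pooled. Slc17a7 fills all 26 excitatory clusters, whereas Slc17a6 peaks in Exc_21 (109 CPM at P60) and Slc17a8 in Exc_21 and Inhib_12 (41.5 and 187 CPM).

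The uptake transporters and Glul were centred on glia, each with a further site. Slc1a2 (GLT-1, ENSMUSG00000005089, chr2:102498816-102630941, plus strand), the main forebrain glutamate uptake carrier, was 4401 ± 347 CPM in astrocytes (n = 11 P60 libraries with at least 10 astrocytes). OPC followed with 478 ± 147 CPM and excitatory neurons with 333 ± 47.5 CPM, a pair whose gap was within the larger SD, and the remaining classes had means of 65.8 to 149 CPM. The other astrocyte transporter had a different profile. Slc1a3 (GLAST, ENSMUSG00000005360, chr15:8584124-8660764, minus strand) was 3308 ± 579 CPM in astrocytes and 5.53 ± 2.92 CPM in excitatory neurons, so the ratio of Slc1a2 to Slc1a3 in saline P60 libraries was 1.32 in astrocytes and 67.2 in excitatory neurons. Outside astrocytes Slc1a3 was highest in OPC (393 CPM), then microglia (172 CPM) and Oligo (86.3 CPM), and each of these steps exceeded the larger SD. As given above, the summed astrocyte markers in OPC were level with the precursor list. The part of astrocyte RNA in the OPC levels of Slc1a2 and Slc1a3 was not tested. Among P60 excitatory clusters Slc1a2 ran from 105 ± 20.5 CPM in Exc_12 to 883 ± 156 CPM in Exc_18, a cluster led by Igfbp4 and Syt6. Astrocyte clusters ran from 3331 CPM in Astro_2 to 5462 CPM in Astro_3.

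Slc1a1 (EAAC1, ENSMUSG00000024935, chr19:28909539-28988450, plus strand), the carrier usually described as neuronal, was highest in NF Oligo at 516 ± 137 CPM (n = 11), where 82.1% of P60 cells had a UMI. Endo (127 CPM) and OPC (114 CPM) followed and did not differ beyond their SD. Inhibitory (48.3 CPM) and excitatory neurons (39.8 ± 1.87 CPM) came next. Its share of cells was 2.34% in astrocytes and 3.04% in Oligo, at median depths of 3512 and 3626 UMIs, against 29.5% in OPC at a median of 3405 UMIs. Within the excitatory class Exc_26, led by Pou3f1, held the most (84.2 ± 21.2 CPM) and Exc_21 the least (23.0 ± 8.32 CPM).

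Glul (ENSMUSG00000026473, chr1:155747074-155756853, plus strand), the enzyme that makes glutamine from glutamate and ammonia, was 7861 ± 1681 CPM in astrocytes, 3690 ± 854 CPM in Oligo, 2107 CPM in microglia and 1496 ± 158 CPM in Endo. OPC (534 CPM), inhibitory neurons (324 CPM), NF Oligo (204 CPM) and excitatory neurons (67.5 CPM) followed, and every step of this order exceeded the larger SD. The ratio of Glul to Slc1a3 was 47.3 in Oligo and 2.49 in astrocytes of saline P60 libraries. It was also above that of astrocytes in Endo (38.9), excitatory neurons (13.2) and inhibitory neurons (11.2). Within Oligo, Oligo_1 was low at 725 CPM over 172 of 1578 cells, and its leading genes included Gpr17, a marker of newly formed oligodendrocytes. The other Oligo clusters held 2538 to 5575 CPM. In Endo the highest clusters were Endo_1, led by Bmx and Gkn3 (3158 CPM), and Endo_2, led by the smooth muscle genes Acta2 and Tagln (2439 CPM), against 807 to 1872 CPM in the rest.

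**Figure D2:**
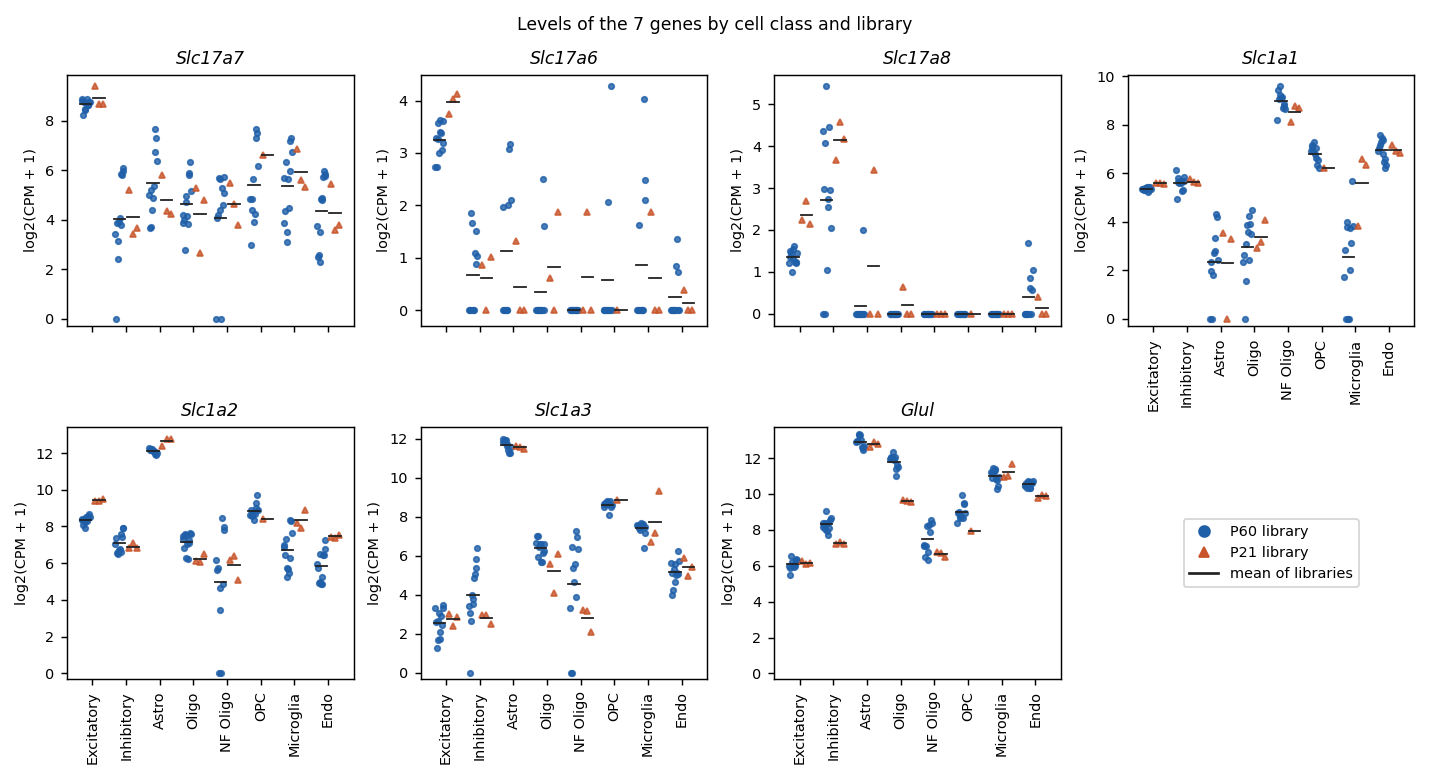
Level of each of the 7 genes by cell class, as log2(CPM + 1); circles are the P60 libraries, triangles the P21 libraries and bars their means, for libraries with at least 10 cells of the class. Slc17a7 separates excitatory cells (302 to 475 CPM at P60) from the rest, Slc1a1 peaks in NF Oligo, and in Oligo the P21 triangles of Glul (751 to 797 CPM) lie below every P60 circle.

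Likeness was described by Pearson's r of log2(CPM + 1) over the 82 L2 clusters with at least 50 P60 cells, which share libraries and span classes, among 9385 genes. Slc17a7 was closest to Sv2b (r = 0.94), Neurod6 (0.94) and Nefl (0.94). Slc1a2 was closest to Clu (0.91), Scg3 (0.89) and Mt3 (0.88), Slc1a3 to Slc15a2 (0.93), Appl2 (0.93) and Crot (0.93), and Glul to Pon2 (0.93), Pmp22 (0.92) and Selenbp1 (0.91). Slc1a1 was closest to Rab11a (0.83), Magoh (0.81) and Tsc22d1 (0.80). The values were lower for Slc17a6, with Hs3st4 (0.63), Ppp1r1b (0.59) and Ano3 (0.58), and for Slc17a8, with Myl4 (0.44), Efr3a (0.42) and Cd47 (0.39), whose mean level over the clusters was only 0.762 CPM. Inhib_12, the cluster with the most Slc17a8, had 29 P60 cells and is not among the 82, so these r values leave out the gene's main inhibitory site.

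The comparison of P21 with the 6 saline P60 libraries asked how the genes changed over adolescence. Counts summed per library and class were tested with edgeR's quasi-likelihood test. Calls needed both a change of more than 1.5-fold and an adjusted p (Benjamini-Hochberg, over all tested genes) under 0.05. Fold changes are P60 minus P21 on the log2 scale with SE. Age and library preparation cannot be told apart here, as each library holds 1 age. The members passing the filter on low counts numbered 7 in excitatory neurons, 6 in inhibitory neurons, 4 each in astrocytes, Oligo and NF Oligo, and 5 each in microglia and Endo. OPC had 22 P21 cells and could not be tested in the main setting. With P21 libraries 1 and 3 summed as 1 sample the Glul call in Endo was lost, and with 1 and 2 summed the Slc1a2 call in Oligo was lost.

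In excitatory neurons Slc1a2, Slc17a8 and Slc17a6 were lower at P60, 3 of the 7 members, where 18% of the 13089 tested genes were called. Slc1a2 read 673, 672 and 719 CPM in the 3 P21 libraries, against a lowest of 274, a median of 343 and a highest of 415 CPM in the saline P60 libraries. The ages did not overlap, and the 6 cocaine libraries (242 to 378 CPM) also lay below all P21 values. Its change was -0.98 ± 0.10 (adjusted p = 3.0e-05, edgeR). The mix of assigned clusters differed between ages. Exc_18, the cluster with the most Slc1a2, was 6.19% of excitatory cells at P21 and 1.70% at P60, and Exc_20 was 8.34% and 1.21%. The median change over the 26 clusters was -0.71. Marker sums of other classes in the same cells moved in both directions. Astrocyte markers were 52.7 to 79.4 CPM at P21 and 89.4 to 183 CPM in saline P60 libraries, and microglial markers had means of 31.0 and 33.2 CPM. The means of oligodendrocyte (225 and 94.8 CPM), newly formed oligodendrocyte (64.0 and 45.4 CPM), precursor (4.63 and 2.16 CPM), endothelial (28.9 and 14.5 CPM) and inhibitory markers (28.3 and 8.93 CPM) were lower at P60. The part of RNA from other cells in the Slc1a2 decrease was not tested.

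Slc17a8 in excitatory neurons was 3.69, 5.46 and 3.38 CPM at P21 and 0.985, 1.64 and 1.90 CPM as lowest, median and highest at P60, without overlap (-1.37 ± 0.23, adjusted p = 5.3e-04). The summed inhibitory markers in excitatory cells were 23.2 to 33.8 CPM at P21 and 1.93 to 16.8 CPM at P60, and their part in the Slc17a8 decrease was not tested. Outside Exc_21 it fell from 0.929 to 0.137 CPM on average, and within Exc_21 it was also called lower (-0.79 ± 0.23, adjusted p = 0.015). The call in Exc_21 was lost with DESeq2, with thinned cells, without the 15 d withdrawal libraries and without P21 replicate 2 or saline 15 d replicate 1. Slc17a6 was 12.5, 15.2 and 16.4 CPM at P21 and 5.68, 8.67 and 11.4 CPM at P60 (-0.65 ± 0.17, adjusted p = 0.0097). The ages did not overlap, but this call was lost without P21 replicate 3 and without saline maintenance replicate 2. Slc17a6 was not called in any of the 3 clusters that could be tested, Exc_21 included, and its P21 and P60 levels outside Exc_21 were 8.90 and 5.75 CPM. Exc_10 was 1.56% of excitatory cells at P21 and 6.78% in saline P60 libraries, with 2.93% and 25.2% of their Slc17a6 UMIs. Outside it the levels were 14.5 and 7.45 CPM.

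Slc17a7 was not called in the class (-0.27 ± 0.17, adjusted p = 0.23). P21 replicate 1 read 678 CPM and the other 2 read 405 and 406 CPM, inside the P60 range. Without that library the change was near 0 and positive. Slc1a1 (-0.19 ± 0.07, adjusted p = 0.060) and Glul (-0.06 ± 0.15) were not called in excitatory neurons either. Slc1a3 was not called (-0.09 ± 0.55), but this rested on the 15 d libraries. It read 4.32 to 7.02 CPM at P21, 9.21 and 9.97 CPM in the 2 saline libraries of 15 d and 1.45 to 5.15 CPM in the other 4. Without the 15 d libraries the Slc1a3 P60 minus P21 in Excitatory was -1.16 (adjusted p = 0.0134, edgeR) and was called.

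The decrease of Slc1a2 was spread over the excitatory clusters. It was called in 21 of 26 clusters and had a negative estimate in all 26, where 6.56% of all excitatory cluster-by-gene tests were called lower and 4.46% higher. The changes ran from -1.03 ± 0.12 in Exc_22 to -0.33 ± 0.23 in Exc_26. Exc_9, Exc_14 and Exc_21 passed the adjusted p and fell short of 1.5-fold, and Exc_4 and Exc_26 passed neither. Of 3476 genes tested in every cluster, 61 (1.75%) were lower in at least 21 clusters, and 403 (11.6%) had a negative estimate in every cluster. With at least 30 cells per library 18 clusters could be tested for Slc1a2, of which 10 were called and 18 had a negative estimate. The clusters kept a wide spread at both ages: Exc_18 was highest at P21 (1446 CPM) and P60, and Exc_12 and Exc_26 were among the lowest.

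**Figure D3:**
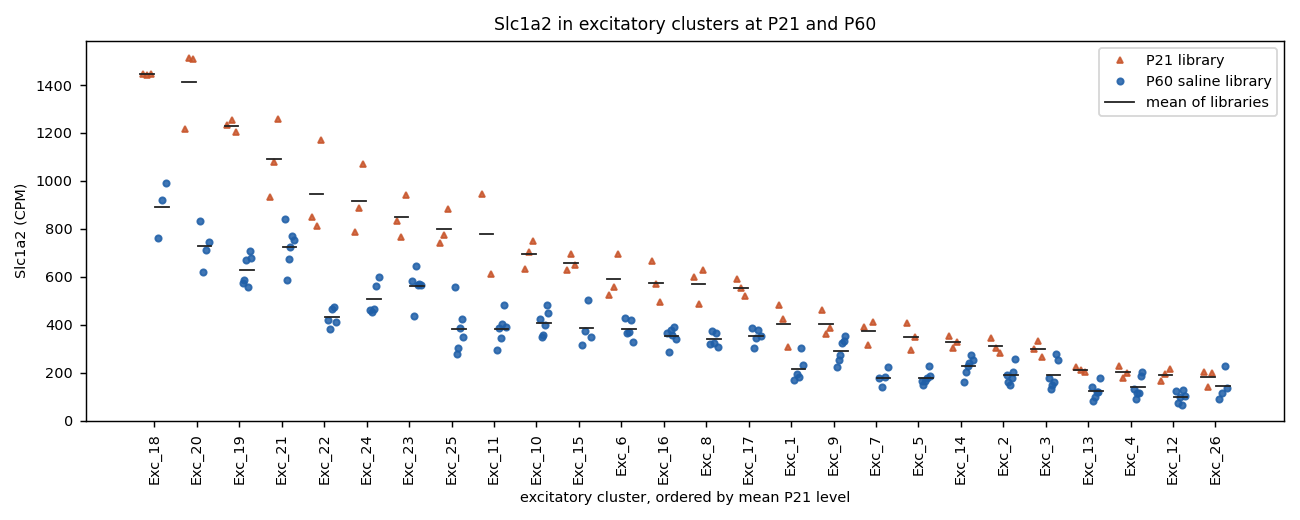
Slc1a2 level in CPM in each excitatory cluster, ordered by the P21 mean; triangles are the 3 P21 libraries, circles the saline P60 libraries with at least 10 cells, bars their means. The P21 mean lies above the P60 mean in every cluster, from 1446 CPM in Exc_18 to 181 CPM in Exc_26 at P21.

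Other members changed in few clusters. Slc17a7 was called lower in Exc_7 (-0.77 ± 0.17, adjusted p = 0.0078), Exc_22 (-0.66 ± 0.16, adjusted p = 0.0065) and Exc_24 (-0.82 ± 0.15, adjusted p = 4.2e-04) of 26 clusters. Without P21 replicate 1, the library with the high class level, the changes were -0.47 in Exc_7 and -0.36 in Exc_22, both no longer called, and -0.60 in Exc_24, still called. In that setting 1 cluster was called higher for Slc17a7. Its estimate was then negative in 11 of 26 clusters, against 21 in the main setting, so the direction over clusters rested on that library. The Exc_7 call was also lost with at least 30 cells per library and with thinned cells. Glul was called higher in Exc_6 (1.14 ± 0.31, adjusted p = 0.015), a call lost with DESeq2, with at least 30 cells per library and without P21 replicate 3 or saline 15 d replicate 2. Without the 15 d libraries no excitatory cluster was called for Glul. Its estimate was then negative in 16 of 24 clusters, against 5 of 26 in the main setting. With thinned cells 5 excitatory clusters could be tested for Glul and 0 were called. None of the 9 tests of members in inhibitory clusters was called, with a smallest adjusted p of 0.056 (edgeR), where 1.73% of all such tests were called. An unadjusted p below 0.05 (edgeR) was found in 2 of the 9. Among all genes it was found in 746 of 5540 tests in Inhib_2, 883 of 5127 in Inhib_7 and 227 of 1439 in Inhib_9. Inhibitory clusters held few cells per library, and only 3 of them could be tested.

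In inhibitory neurons as a class, Glul was higher and Slc17a8 lower at P60 (14.1% of genes called). Glul read 149, 161 and 149 CPM at P21 and 241, 322 and 398 CPM as lowest, median and highest in saline P60 libraries, with no overlap (1.09 ± 0.14, adjusted p = 8.0e-05). The mix of assigned clusters differed between ages, counted over all 12 P60 libraries. Inhib_2, the lowest cluster at P21 with 73.2 CPM, was 334 of 939 cells at P21 and 110 of 1168 at P60. With all cells of an age summed, cocaine libraries included, Glul was 73.2 and 180 CPM in Inhib_2, 128 and 402 CPM in Inhib_6, 294 and 349 CPM in Inhib_7, and 449 and 377 CPM in Inhib_12 at P21 and P60. The summed astrocyte markers in inhibitory cells were 94.7 to 143 CPM at P21 and 127 to 536 CPM at P60, and their part in the Glul rise was not tested. Slc1a3 had the largest estimate of the members in this class but was not called (2.60 ± 0.84, adjusted p = 0.068, edgeR). It read 4.61 to 6.88 CPM at P21, 56.7 and 82.6 CPM in the saline libraries of 15 d and 0 to 15.1 CPM in the other 4 saline libraries. It was called with at least 30 cells, with all 12 P60 libraries and without saline maintenance replicate 2. Slc17a8 was 11.7, 22.9 and 16.9 CPM at P21 and 0, 2.099 and 6.87 CPM at P60 (-2.16 ± 0.44, adjusted p = 0.0023). The 6 cocaine P60 libraries read 4.89 to 42.5 CPM, a range that spans all P21 values. Inhib_12 was 4.69% of inhibitory cells at P21 and 2.55% in saline P60 libraries, and without it the means were 1.53 and 0.468 CPM. That call was lost with cells thinned to equal depth and with all 12 P60 libraries.

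In Oligo, Glul had the largest fitted change among the members called in a class. It read 797, 780 and 751 CPM at P21 and 2938, 3950 and 5248 CPM as lowest, median and highest at P60 (2.24 ± 0.19, adjusted p = 4.6e-07, edgeR, where 17.8% of genes were called). The lowest P60 library was far above all P21 libraries. P21 oligodendrocytes carry no sub-cluster in the deposited annotation, so change within sub-clusters cannot be told apart from their mix. Leaving Oligo_1 out of the P60 cells moved the saline mean to 4376 ± 761 CPM, further from P21 (776 ± 23.0 CPM). The Oligo markers themselves summed to 113608 CPM at P21 and 65203 CPM at P60. Slc1a2 was also called higher in Oligo (0.93 ± 0.25, adjusted p = 0.014), from 67.04 to 90.3 CPM at P21 to 77.8 to 196 CPM at P60, so the ages overlapped. That call was lost without P21 replicate 1 or 2, without the 15 d withdrawal libraries and with the authors' class column, and the estimate turned negative when cells were classed by their cluster. Slc1a3 in Oligo was not called (0.90 ± 0.32, adjusted p = 0.058, edgeR). It was called with no filter on low counts, with all 12 P60 libraries and with P21 libraries 2 and 3 summed. The authors' class column and leaving out P21 replicate 3 also gave that call. Summed astrocyte markers in Oligo were 91.2 to 135 CPM at P21 and 195 to 437 CPM at P60.

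In Endo, Glul was called higher at a change near the cutoff (0.59 ± 0.11, adjusted p = 0.0026; 12.4% of genes called). P21 libraries read 867, 1001 and 935 CPM and saline P60 libraries 1423, 1569 and 1695 CPM as lowest, median and highest, without overlap. The call was lost without P21 replicate 1, saline maintenance replicate 2, saline 48 h replicate 2 or saline 15 d replicate 2. It was also lost with thinned cells, with all 12 P60 libraries, without the 15 d libraries, when cells were classed by their cluster and when P21 libraries 1 and 3 were summed. The summed astrocyte markers in Endo were 1319 to 1575 CPM at P21 and 1899 to 2461 CPM at P60, and Glul per unit of that sum was 0.663 and 0.716. The part of those markers in the Glul result was not tested. Endo Slc1a2 was 163 to 188 CPM at P21 and 29.0 to 155 CPM at P60, and this difference was not called (-1.43 ± 0.51, adjusted p = 0.11). The Slc1a2 P60 minus P21 in Endo was called with all 12 P60 libraries (-1.50), without saline 15 d replicate 1 (-1.82) and without the 15 d libraries (-2.40, adjusted p = 7.06e-08, edgeR).

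Astrocytes, the main site of Slc1a2, Slc1a3 and Glul, had no member called, and only 0.864% of genes were called there. Slc1a2 was 5381, 6920 and 6979 CPM at P21, above all 11 P60 libraries (3852 to 4906 CPM), with a change of -0.54 ± 0.19 against saline libraries (adjusted p = 0.21, unadjusted p = 0.012). With the authors' class column alone the Slc1a2 P60 minus P21 in Astro was near 0 and positive (0.011). Slc1a3 (0.14 ± 0.21) and Glul (0.25 ± 0.24) had ages that overlapped. P21 astrocytes numbered 306, of which 214 came from replicate 1. The absence of calls there does not show that levels were alike at both ages. No member was called in NF Oligo (2.31% of genes called), where Glul changed by 1.29 ± 0.37 (adjusted p = 0.10) and Slc1a1 by 0.55 ± 0.21 (adjusted p = 0.20), nor in microglia (0.726% of genes called). Some of these tests turned on the setting. In NF Oligo Glul was called higher with at least 30 cells, with no filter on low counts and without saline 48 h replicate 2, Slc1a3 with at least 30 cells and with no filter, and Slc1a2 with at least 30 cells. In microglia Slc1a2 was called lower without the 15 d libraries. With the authors' class column calls appeared for Slc17a7 and Slc1a1 in NF Oligo, for Slc17a7, Slc1a2, Slc1a3 and Glul in microglia, and for Slc1a3 in astrocytes. The same setting also gave calls for Slc1a3 in Oligo and for Slc1a3 and Glul in OPC.

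**Figure D4:**
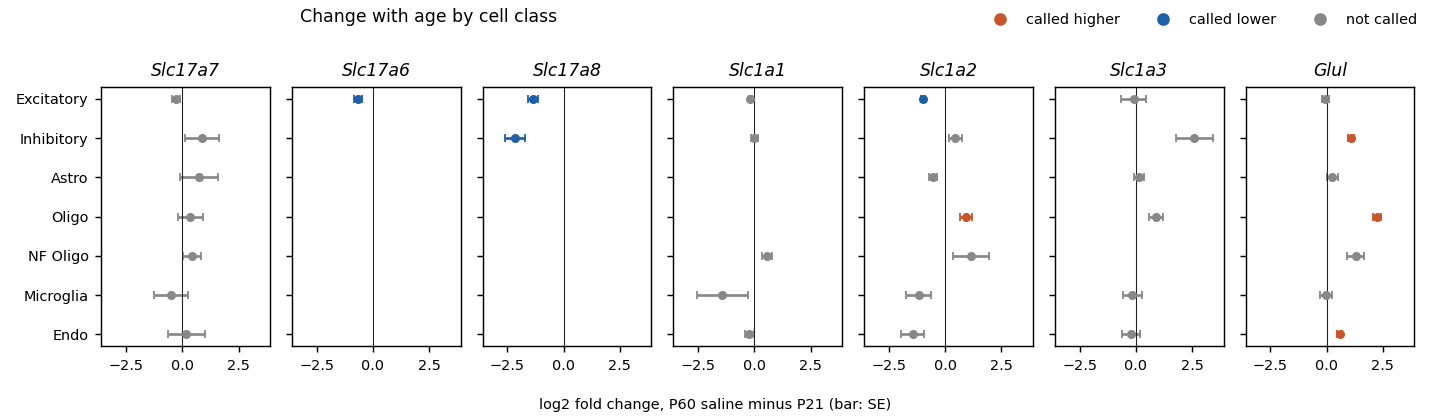
Change of each gene with age by cell class, as log2 fold change of saline P60 minus P21 with its SE as bars; colours mark calls and absent points were not tested. Slc1a2 points are left of 0 in excitatory cells (-0.98) and right of 0 in Oligo (0.93), and the Glul point of Oligo (2.24) lies furthest right among the Glul points.

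Whether the age change differed between classes was tested for Slc1a2 and Glul by an exact two-sided permutation of the age labels over libraries, on log2(CPM + 1), with 12 comparisons chosen after the values were seen. The smallest p possible was 0.0238 with 84 splits and 0.0357 with 56. Slc1a2 changed more negatively in excitatory neurons than in inhibitory neurons (difference -1.32) and Oligo (-1.91), both at the smallest p and adjusted p = 0.0476 (exact permutation). The difference from Oligo rested on the cells classed: with cells classed by their cluster it was -0.18 (exact p = 0.595), and that from inhibitory neurons was -1.31 (adjusted p = 0.0571, exact permutation). Its difference from astrocytes (-0.40) had an exact p of 0.107, but with the authors' class column it was -0.83 (exact p = 0.0357, adjusted p = 0.0476). Those from NF Oligo, microglia and Endo had exact p of 0.262 to 0.857. Glul rose more in Oligo than in excitatory neurons (2.44), inhibitory neurons (1.24), microglia (2.52) and Endo (1.57), each at adjusted p = 0.0476 by the same exact permutation test. Against astrocytes (2.104) the exact p was 0.0357 and the adjusted p 0.0612, and against NF Oligo (1.34) the adjusted p was 0.107. With cells classed by their cluster the Glul differences were 1.17 to 2.49 and the adjusted p 0.0571 to 0.0612 (exact permutation). All were at the smallest p possible there, so the adjusted p followed how many of the 12 comparisons reached it. With the authors' class column those against astrocytes (1.61) and NF Oligo (1.65) also had an adjusted p of 0.0476 by exact permutation.

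The 29 further genes of glutamate and glutamine handling were counted beside the share of all genes called in the same class. In excitatory neurons 3 of 25 tested were called (18% of all genes). Those that rose were Arl6ip5 (0.80 ± 0.18), whose product is known to bind and restrain the Slc1a1 carrier, and Pcx (0.70 ± 0.19), the pyruvate carboxylase that refills the citric acid cycle. The third, Gpt2, a mitochondrial alanine transaminase, fell there (-0.80 ± 0.15). Their median change was -0.07, and that of the members was -0.27. In inhibitory neurons Slc7a5, an amino acid exchanger (1.08 ± 0.29), and Arl6ip5 (0.60 ± 0.15) rose, 2 of 19 tested (14.1% of all genes). In Oligo, Gpt, an alanine transaminase, rose (1.51 ± 0.31), 1 of 9 tested (17.8% of all genes). In Endo, Arl6ip5 rose (0.75 ± 0.14), and Pcx (-1.81 ± 0.22), the neutral amino acid carrier Slc1a4 (-1.38 ± 0.27) and the glutamine carrier Slc38a2 (-0.77 ± 0.14) fell, 4 of 20 tested in all (12.4% of all genes). None was called of 17 in astrocytes, 8 in NF Oligo and 8 in microglia.

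The cocaine comparison set cocaine against saline libraries within each period, with all P60 libraries that held at least 10 cells of a class sharing 1 estimate of the spread. Astrocytes, NF Oligo and OPC had 1 saline maintenance library and were tested at 48 h and 15 d only. No member was called in any class, in 130 tests over 8 classes (edgeR; 0.103% of all class tests called). Slc1a3 came closest, in inhibitory neurons at 15 d (-0.90 ± 0.25, adjusted p = 0.10, unadjusted p = 0.0012). Its cocaine libraries read 33.1 and 40.1 CPM and its saline libraries 56.7 and 82.6 CPM there, so the pairs did not overlap. The summed astrocyte markers in the same cells were 364 and 282 CPM with cocaine and 536 and 532 CPM with saline, and their part in this difference was not tested. At maintenance the same gene was 5.26 and 9.76 CPM with cocaine and 0 and 7.42 CPM with saline. Unadjusted p values fell below 0.05 in 16 tests: 5 of Slc1a3, 4 of Slc1a2, 3 of Glul, 2 of Slc17a8, 1 of Slc17a7 and 1 of Slc1a1. The share of all genes below that unadjusted threshold is not given here, so the count is not read as a result about the members.

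At the main site of each gene no call was made either. In excitatory neurons Slc17a7 read 452 and 431 CPM with cocaine and 475 and 302 CPM with saline at maintenance, and 402 and 403 CPM against 435 and 436 CPM at 15 d. Slc1a2 in astrocytes at 15 d was 4234 and 3941 CPM with cocaine and 3852 and 4064 CPM with saline. Glul in Oligo at 15 d was 2033 and 2660 CPM with cocaine and 3169 and 2938 CPM with saline, a difference of -0.39 ± 0.15 (adjusted p = 0.51). For Slc17a8 in inhibitory neurons at 48 h the difference was 4.10 ± 1.55 (adjusted p = 0.90), where cocaine libraries read 42.5 and 4.89 CPM and saline libraries 0 and 1.06 CPM. Over all periods the 15 Inhib_12 cells of cocaine libraries held 57 Slc17a8 UMIs and the 14 of saline libraries held 14. Single libraries gave much of both: without cocaine 15 d replicate 2 the cocaine count was 32, and without saline 15 d replicate 1 the saline count was 4.

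In neuron clusters no member was called for cocaine either (0.439% of all cluster tests called). Of 26 excitatory clusters 15 could be tested at maintenance, 19 at 48 h, 26 at 15 d and 14 at all of them, and of the inhibitory clusters 1 could be tested at 48 h and 3 at 15 d. The smallest adjusted p was 0.087, for Slc1a3 in Exc_4 over all periods (0.92 ± 0.23, edgeR). The effect of cocaine on Glul in Exc_5, a cluster led by Lpl and Myh7, differed between periods (adjusted p = 0.041, where 0.0373% of such cluster tests passed). At maintenance Exc_5 read 56.3 and 62.4 CPM with cocaine and 15.6 and 15.4 CPM with saline, and at 15 d 21.8 and 47.3 CPM with cocaine and 69.0 and 67.3 CPM with saline. The values rest on 4 to 62 UMIs per library. The result was lost with at least 30 cells per library, with thinned cells, and without any 1 of 6 libraries: either cocaine maintenance library, saline maintenance replicate 2, saline 48 h replicate 1, cocaine 15 d replicate 1 or saline 15 d replicate 1. None of the 29 further genes was called for cocaine in a class. In clusters 1 of them was called, Slc3a2, the heavy chain that Slc7a5 and Slc7a11 pair with, higher with cocaine at 15 d in Exc_11 (1.04 ± 0.21, adjusted p = 2.9e-04) and Exc_13 (1.02 ± 0.21, adjusted p = 0.0021). It read 153 and 211 CPM with cocaine and 72.8 and 109 CPM with saline in Exc_11, and 146 and 163 CPM against 75.9 and 88.3 CPM in Exc_13. Both calls were lost with DESeq2 and without cocaine 15 d replicate 2 or saline 15 d replicate 1, and the Exc_11 call with thinned cells.

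**Figure D5:**
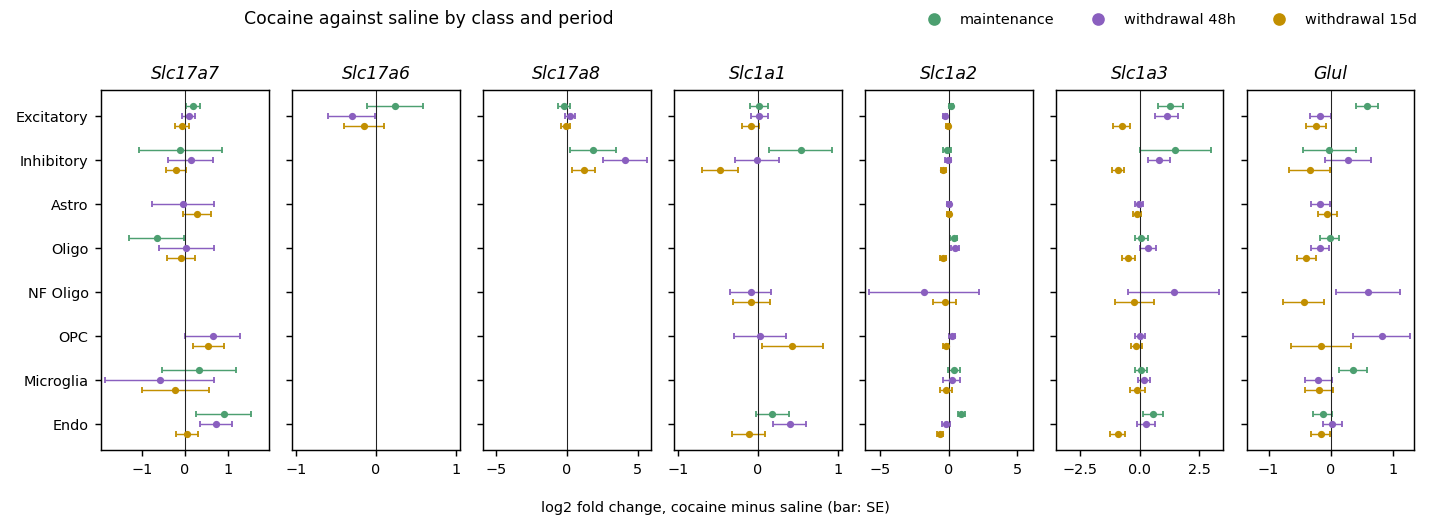
Cocaine minus saline log2 fold change of each gene by class and period, with SE as bars and a scale of its own for each gene; absent points were not tested. No point was called, and the widest bars belong to classes with few UMIs, such as Slc17a8 in inhibitory neurons at 48 h (4.10 ± 1.55).

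In several classes some members split the P60 libraries by period. In astrocytes Glul was 5642 to 6436 CPM in the 4 libraries of 15 d withdrawal and 7655 to 10261 CPM in the other 7, and Slc1a2 (3852 to 4234 against 4388 to 4906 CPM) and Slc1a3 (2427 to 3048 against 3132 to 4051 CPM) were lower there too (2.54% of all genes with a mean of at least 10 CPM lay below in all 4). In Oligo, Glul was 2033 to 3169 CPM at 15 d and 3861 to 5248 CPM in the other 8 libraries (1.34% of such genes lay below). None of these ranges overlapped, and cocaine and saline libraries lay on the same side. In the opposite direction, Slc1a2 in inhibitory neurons was 171 to 244 CPM at 15 d and 89.5 to 163 CPM in the others (1.4% of such genes lay above), and Slc1a3 there was 33.1 to 82.6 CPM at 15 d and 0 to 28.3 CPM in the others. In Endo, Slc1a1 was 74.0 to 94.7 CPM at 15 d and 109 to 190 CPM in the other 8 libraries (2.41% of such genes lay below). Slc17a6 in astrocytes was 3.03 to 8.05 CPM at 15 d and 0 to 2.91 CPM in the others. This rested on 17 UMIs in 1487 cells, with 6 of 11 libraries at 0. Of genes with a mean of at least 10 CPM, 10.8% lay above in the same way in astrocytes. In Oligo the ranges of Slc1a2 and Slc1a3 overlapped, as did those of Slc1a2, Slc1a3 and Glul in NF Oligo, OPC and microglia. The summed astrocyte markers in astrocytes were 14748 to 18510 CPM at 15 d and 21081 to 25372 CPM in the others. Median UMIs per cell overlapped between the 15 d libraries (8771.5 to 11334.5) and the other P60 libraries (3426 to 10962). Period and library size cannot be told apart. The 15 d libraries held the most UMIs of the P60 libraries (27704573 to 42892922) and the most annotated cells (2512 to 3784, against 1055 to 1830). Period and age at sampling cannot be told apart either, as mice of later periods were older.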

How the data were processed

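The deposited files held UMI counts per gene and cell from 15 libraries. Per the paper's methods and the labels the authors aligned reads with Cell Ranger to mouse build mm9 (NCBIM37), and classed cells with Seurat 2.1.0. Their cell table gave class, L2 cluster and, as a fraction, the mitochondrial share of UMIs; likely doublets had been removed by an upper limit on detected genes per the methods. Of 35360 annotated cells, 492 (459 at P21) whose class and cluster disagreed were left out. Counts were summed per library and class or cluster (at least 10 cells), without 13 mitochondrial and 143 ribosomal protein genes, and tested with edgeR 4.0.16 (TMM, quasi-likelihood, Benjamini-Hochberg) after a check on simulated data. DESeq2 1.42.0 served as an alternative. Named genes were the 7 members, called genes of the 29-gene list and the 3 nearest genes per member. Members and lists were chosen with earlier results of these data known. No exon of another gene overlapped the last 300 bases of a member. P60 libraries pooled 2 mice each. P values measure the spread between libraries.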

Additional observations from a re-analysis of the deposited data

Results flagged for a closer look

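Among 37 groups of saline libraries checked, 4 held a library far from the others, where chance gives about 1 in 20. The gap to the nearest library, as a share of the range, was 0.704 for Slc17a7 in Oligo, 0.703 for Slc1a1 in microglia and 0.763 for Glul in OPC, each with saline 15 d replicate 1 highest. It was 0.669 for Slc1a1 in inhibitory neurons, with saline maintenance replicate 1 lowest. That library held 19 inhibitory cells, the fewest of the P60 libraries.

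The age change of Slc1a2 differed between excitatory neurons and both inhibitory neurons (-1.32) and Oligo (-1.91), by exact permutation. With cells classed by their cluster the difference from Oligo was -0.18 (exact p = 0.595). The age change of Glul in Oligo differed from that in excitatory neurons (2.44), inhibitory neurons (1.24), microglia (2.52) and Endo (1.57), and with cells classed by their cluster these differences had an adjusted p of 0.0571 (exact permutation). The effect of cocaine on Glul in Exc_5 differed between periods (adjusted p = 0.041, edgeR).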

How the results depend on the processing

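Age calls of members numbered 8 in classes and 26 in neuron clusters. The share of all genes called is given above for the main setting only. The counts under other settings are therefore not read as results about the members. In classes the same 8 calls were kept by DESeq2, by its size factors and with mitochondrial and ribosomal protein genes kept. The class column of the authors gave 17 calls, and leaving out 1 library gave 6 to 9. In clusters at least 30 cells gave 13, and leaving out 1 library 24 to 28. Cocaine calls, 0 in classes, were 8 with no filter on low counts, 1 with thinned cells and 0 to 2 without 1 library. Those calls appeared without cocaine 48 h replicate 1 or 2 or cocaine 15 d replicate 1. Cocaine calls in clusters, also 0, were 0 to 2 without 1 library, and appeared without cocaine 48 h replicate 1 or 2, saline 48 h replicate 2 or saline 15 d replicate 2. Differences between periods numbered 0 in classes (4 with no filter, 0 to 1 without 1 library) and 1 in clusters (0 with at least 30 cells, 0 with thinned cells, 0 to 2 without 1 library). The cause was not tested. The sign reversed for Slc17a7 P60 minus P21 in Excitatory without P21 replicate 1 (0.026; lowest -0.40 without P21 replicate 2), for Slc1a3 P60 minus P21 in Excitatory with thinned cells (0.035) and without 1 library (-0.40 to 0.11), for Slc1a2 P60 minus P21 in Astro with the class column of the authors (0.011) and for Slc1a2 P60 minus P21 in Oligo by class of the cluster (-0.88). For the Slc1a2 change with age, Excitatory against NF Oligo, it reversed with the class column of the authors (0.87) and by class of the cluster (1.053). Of the members' levels, Slc17a6 level in Excitatory was 11.6 CPM with thinned cells and Slc1a2 level in Astro was 4049 CPM with mitochondrial and ribosomal protein genes kept; the other 124 values moved by less than 1 SD. Settings that change the cells of a class or leave out the 15 d libraries were chosen after seeing the data. No paired analysis was possible because adult and P21 libraries share library numbers but no animals, and treated and saline libraries carry different library numbers.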
